A study of Mus musculus with 12 samples.

Results

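Genes lying within 5 Mb of either end of the thyroglobulin gene *Tg* on mouse chromosome 15 were described in thyroids with and without dysplasia. *Tg* occupies chr15:66670753-66850721 on the plus strand of GRCm38, and a gene was included when its annotated start fell between 61670753 and 71850721. The rule found 105 of the 55536 annotated genes, not counting *Tg*, which serves only as a reference. Of these, 62 lie before *Tg*, 2 lie over it and 41 lie after it. At least 10 estimated counts in 5 or more of the 12 mice were reached by 21 genes, 15 of them protein-coding, and these 21 are described here in order of their distance from *Tg*.

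RNA was sequenced from the thyroids of 12 C57BL/6N mice, 1 library a mouse. The 5 affected mice came from Taconic (B6NTac), showed the thyroid dysplasia phenotype and carry library names with the suffix TCW. The 7 unaffected mice comprised 6 wild type animals from Charles River (B6NCrl, suffix CRW) and 1 animal from Taconic (suffix TCK), which the study's methods call a KO unaffected animal. The labels give neither the sex, the age, the *Tg* genotype of each mouse nor the gene knocked out in the TCK mouse, and, apart from that animal, phenotype and vendor divide the mice the same way and cannot be told apart.

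Thyroglobulin is the large secreted protein on which the thyroid makes its hormones, and *Tg* is among the most abundant transcripts of the follicular cell. The dysplasia was traced by the study to a LINE-1 element, a retrotransposon, inserted in the intron before exon 26 of *Tg*. Genes that neighbour each other on a chromosome can share regulatory elements, and inserted retrotransposons can alter the RNA made from genes around them, and the comparison asks whether the genes on either side of *Tg* differ between affected and unaffected animals. Among the neighbours are *Myc*, which encodes a transcription factor driving cell growth, and *Pvt1*, the long non-coding RNA gene beside it.

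Total estimated counts ranged from 20170500 to 23319948 in affected mice and from 11434901 to 22401136 in unaffected mice, the lowest being the TCK mouse. *Tg* alone took 10.7% to 24.3% of the counts in affected mice and 21.6% to 29.6% in unaffected mice. All 9 thyroid follicle markers passed the filter on low counts, with a summed level of 814 to 1676 CPM in affected and 1207 to 1945 CPM in unaffected mice. CPM are counts relative to the library total, adjusted by TMM (trimmed mean of M-values) factors, in all values below. Neighbouring tissue also differed from mouse to mouse, as the summed level of 6 skeletal muscle markers ran from 11.2 to 26731 CPM in affected and from 1.39 to 11261 CPM in unaffected mice. Fewer cells of a type and less RNA per cell cannot be told apart in whole thyroids.

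Of the 21 genes near *Tg*, 3 were higher and 1 was lower in affected mice at an adjusted p under 0.05 (edgeR quasi-likelihood test, Benjamini-Hochberg adjustment over all 19661 genes tested). These 4 genes are 19% of the 21, beside 13.7% of all genes tested. By direction, 7.63% of all genes were called higher and 6.10% lower. The higher genes were *Pvt1*, *St3gal1* and *Myc*, and the lower gene was *Gm37296*. In 1 gene, *Gm37296*, every affected mouse lay outside the range of the unaffected mice, beside 7.14% of all genes tested. At an unadjusted p under 0.05, 6 of the 21 genes passed (28.6%), beside 29.0% of all genes tested. The median log2 fold change (affected minus unaffected) of the 21 genes was 0.04, beside 0.01 for all genes, and single values ran from -0.56 to 1.06. The rest of chromosome 15 gave 97 calls among 691 genes tested (14.0%).

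Among the 7 genes that overlie *Tg* or lie within 0.2 Mb of it, 0 had an adjusted p under 0.05 by edgeR, 0 had an unadjusted p under 0.05, and DESeq2 called 0. Within 1 Mb, 1 of 10 genes was called, and beyond 1 Mb, 3 of 11 were called. Beside the 13.7% called among all genes, these counts are too small to set the distances apart, and the difference between them was not tested. As reported, more fold changes were above 0 before *Tg* and below 0 after it. Before *Tg*, 9 of 10 genes had a fold change above 0, with a median of 0.22. After *Tg*, 6 of 9 had one below 0, with a median of -0.27. Among all 19661 genes tested, 9980 were above 0 and 9681 below 0. Most of these single differences did not pass the test, and the difference between the sides was not tested. *Fam49b*, *Gm10926* and *Kcnq3* before *Tg* and *Zfat* after it changed sign in other settings. With library totals without *Tg*, *Fam49b* was -0.09, and *Asap1* (0.04), *Gm10926* (0.03) and *Phf20l1* (0.06) lay near 0. In that setting *Pvt1* (0.91), *Myc* (0.37), *Tmem71* (0.34) and *Lrrc6* (0.12) were further above 0. *Gm37320*, *Gm26621* and *Gm37296*, all below 0, lie side by side on one strand and may not be independent.

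**Figure D1:**
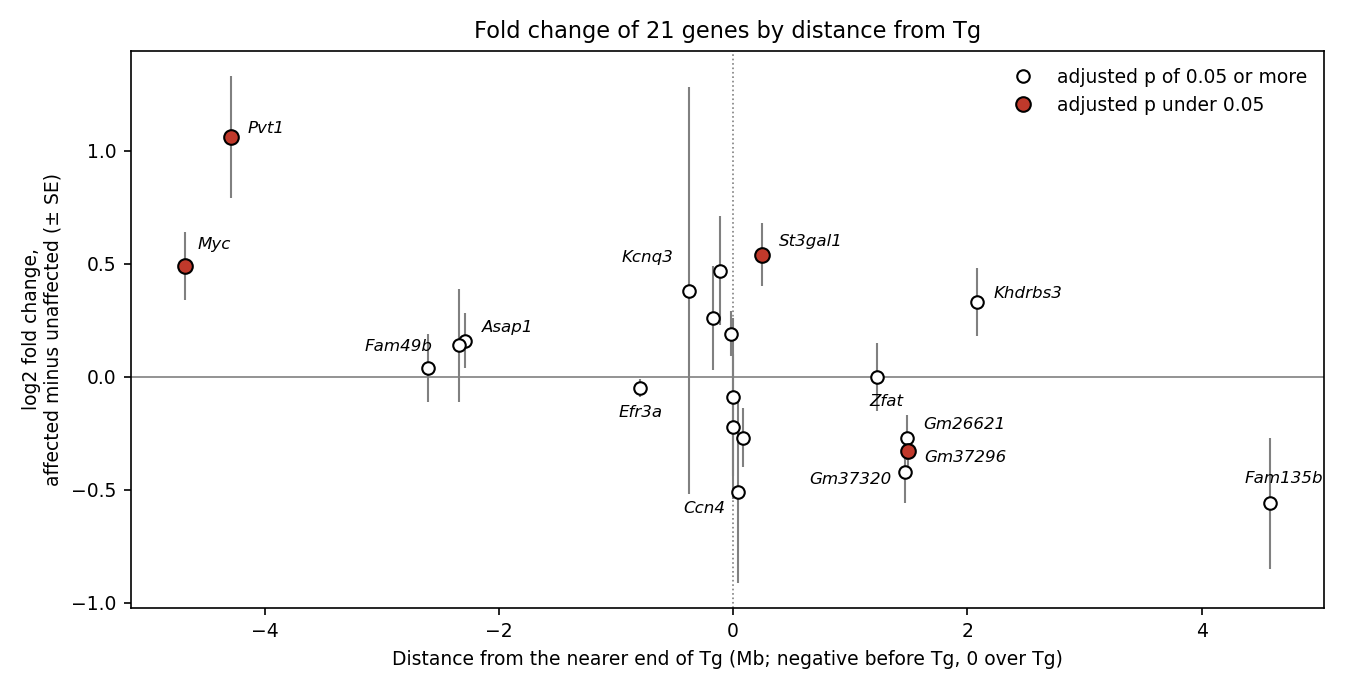
Log2 fold change (affected minus unaffected, vertical axis, bars are 1 SE) of the 21 genes against distance from the nearer end of *Tg* in Mb (horizontal axis, negative before *Tg*). Filled points mark the 4 genes with an adjusted p under 0.05, of which *Myc*, *Pvt1* and *Gm37296* lie more than 1 Mb from *Tg* and *St3gal1* lies 0.25 Mb after it.

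*Sla* and *Gm17140* lie over *Tg* on the opposite strand. *Sla* encodes the Src-like adaptor protein, known as a negative regulator of antigen receptor signalling in lymphocytes. It spans chr15:66780819-66831829, from 110 to 161 kb into *Tg*, beyond *Tg* exon 26, which begins 54.3 kb into the gene. No annotated exon base of *Sla* is shared with a *Tg* exon. *Gm17140*, an antisense RNA gene, spans chr15:66739059-66744327 and shares 112 of its 627 exon bases with *Tg* exons.

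In affected mice 1, 3, 4, 5 and 6, the order used for all values of affected mice below, *Sla* reached 671, 2371, 3446, 2386 and 1342 CPM. The unaffected mice ranged from 1666 to 3104 CPM with a median of 2373 CPM. Affected mice 1 and 6 lay below every unaffected mouse and affected mouse 4 above every one, so the groups overlapped. The log2 fold change was -0.22 (SE 0.32, adjusted p = 0.696). Per length, *Sla* stood at 419 ± 212 FPKM (SD, n = 5) in affected and 497 ± 113 FPKM (SD, n = 7) in unaffected mice, the highest level of the 21 genes, while *Tg* stood at 21797 ± 7796 and 28681 ± 3556 FPKM.

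The level of *Sla* was far above that of lymphocyte genes. Summed over 8 T cell markers, the level was 3.91 to 50.4 CPM in affected mice and 5.26 to 301 CPM in unaffected mice, and the relative *Sla2* lay between 0.722 and 11.4 CPM in all mice. The deposited tables do not state whether counting used the strand. Without strand, reads of *Sla* and of unspliced *Tg* RNA cannot be told apart, and the same holds for *Gm17140*.

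The levels of *Gm17140* were 16.9, 56.8, 73.9, 62.1 and 27.0 CPM in the affected mice and 31.3 to 71.9 CPM, with a median of 48.2 CPM, in the unaffected mice. Affected mice 1 and 6 were again the lowest of all 12 and mouse 4 the highest. Its log2 fold change was -0.09 (SE 0.35, adjusted p = 0.899).

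Affected mice 1 and 6 were also the mice with the least *Tg*. *Tg* stood at 100305, 182269, 254784, 198084 and 118853 CPM in the affected mice and between 209650 and 302995 CPM, median 227882 CPM, in the unaffected mice. Of the affected mice, 4 of 5 lay below all unaffected mice, and the fold change of -0.49 (SE 0.21) had an adjusted p of 0.140. *Sla* and *Gm17140* were therefore also expressed as a percentage of the *Tg* counts of the same mouse.

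*Sla* amounted to 0.669%, 1.30%, 1.35%, 1.20% and 1.13% of *Tg* in the affected mice and to 0.795% to 1.18%, with a median of 0.991%, in the unaffected mice. *Gm17140* came to 0.0168%, 0.0312%, 0.0290%, 0.0314% and 0.0227% of *Tg* in affected and to 0.0149% to 0.0271%, median 0.0211%, in unaffected mice. On the log2 scale the SD of *Sla* among affected mice was 0.92 in CPM and 0.41 as a ratio to *Tg*, and that of *Gm17140* was 0.91 and 0.39. The groups overlapped in both ratios. By an exact permutation test, two-sided and using each of the 792 ways to divide the mice (smallest possible p 0.00126), the log2 ratio differed by 0.17 for *Sla* (p = 0.372, adjusted p = 0.496) and by 0.34 for *Gm17140* (p = 0.129, adjusted p = 0.258), adjusted over the 4 ratios computed.

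The other 2 ratios were those of the nearest neighbours on either side, for comparison. *Ccn4* averaged 0.0718% of *Tg* counts in affected and 0.0763% in unaffected mice (exact permutation p = 0.833). *Phf20l1* averaged 0.0992% in affected and 0.0583% in unaffected mice (exact permutation p = 0.00253, adjusted p = 0.0101), with the *Tg* counts in the denominator being lower in affected mice. Among affected mice, the log2 SD of *Ccn4* was 0.71 in CPM and 0.23 as a ratio to *Tg*. That of *Phf20l1* was 0.27 and 0.37. A narrower spread as a ratio to *Tg* was thus not particular to the genes lying over it.

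**Figure D2:**
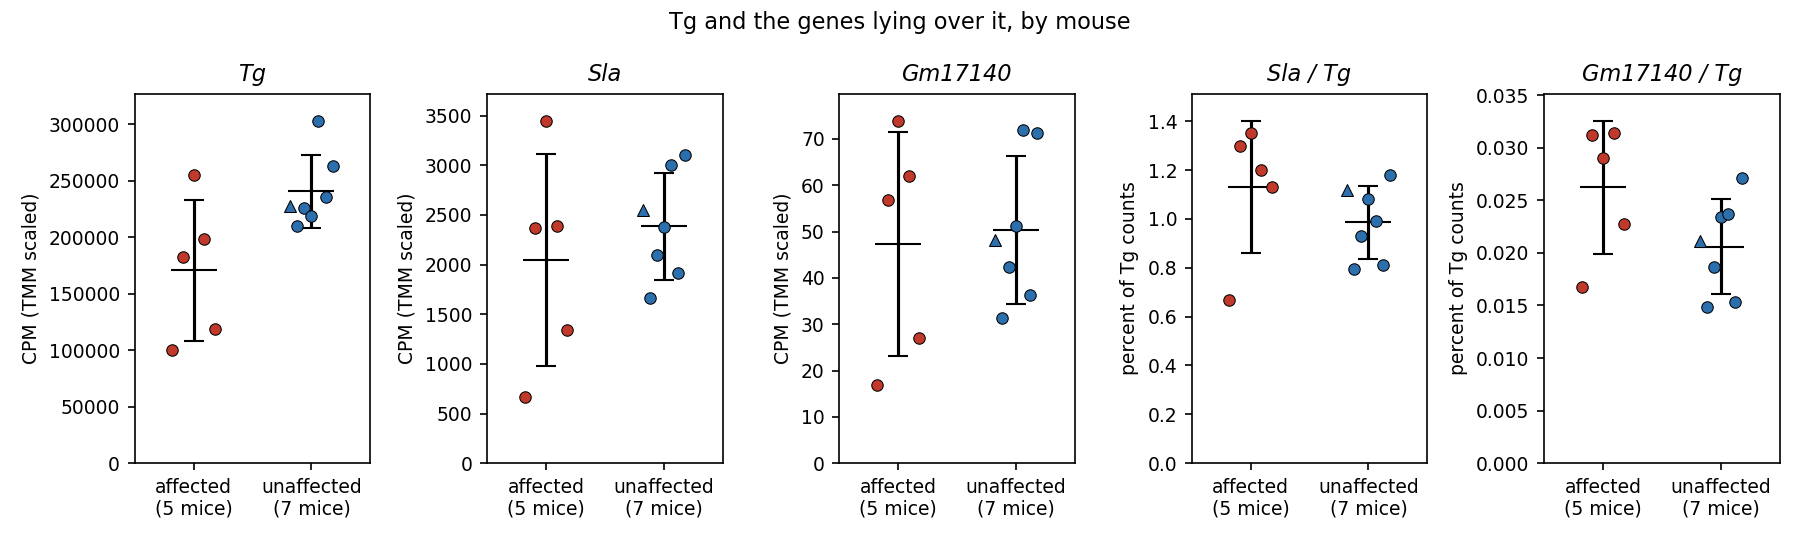
*Tg*, *Sla* and *Gm17140* in TMM-scaled CPM, and *Sla* and *Gm17140* as a percentage of *Tg* counts, in the 5 affected and 7 unaffected mice. Each point is a mouse, the triangle is the TCK mouse, and bars are the mean ± SD. The affected mice with the least *Tg* (100305 and 118853 CPM) also have the least *Sla* and *Gm17140*.

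The 5 genes closest to *Tg* on its upstream side had adjusted p-values (edgeR) from 0.225 to 0.823. *Phf20l1*, which encodes a reader of methylated lysine in chromatin, ends 22.8 kb before *Tg* (chr15:66577560-66647976). It was measured at 131, 178, 166, 191 and 126 CPM in the affected mice and at 125 to 153 CPM, median 137 CPM, in the unaffected mice. Affected mice 3, 4 and 5 exceeded all unaffected mice while mice 1 and 6 lay within their range, and the log2 fold change was 0.19 (SE 0.10, adjusted p = 0.246).

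*Tmem71*, a transmembrane protein gene 110 kb before *Tg*, gave 9.21, 11, 11.8, 10.7 and 8.86 CPM in affected and 3.34 to 12.3 CPM, median 7.51 CPM, in unaffected mice. All affected mice lay above the median of the unaffected mice but within their range (log2 fold change 0.47, SE 0.24, adjusted p = 0.225). *Lrrc6*, which encodes a factor for assembling the dynein arms of cilia, lies 170 kb before *Tg*. Its values were low, at 1.31, 2.08, 1.29, 1.16 and 1.65 CPM in affected and 0.646 to 1.62 CPM, median 1.27 CPM, in unaffected mice, and the groups overlapped (log2 fold change 0.26, SE 0.23, adjusted p = 0.496).

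*Kcnq3* encodes a subunit of voltage-gated potassium channels and lies 384 kb before *Tg*. It had 0.480, 3.16, 0.412, 0.906 and 0.275 CPM in the affected mice and 0.0528 to 3.17 CPM, median 0.226 CPM, in the unaffected mice. The high values came from affected mouse 3, unaffected mouse 21 and, at 1.58 CPM, the TCK mouse, so neither group was high as a whole (log2 fold change 0.38, SE 0.90, adjusted p = 0.823). Leaving out affected mouse 3 turned the fold change to -0.62. The same 3 mice had the highest summed T cell markers of their groups or nearly so, at 50.3, 301 and 298 CPM, and summed airway epithelium markers of 103, 42.9 and 10.1 CPM, beside a median of 2.80 CPM in unaffected mice. Their part in the *Kcnq3* values was not tested.

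*Efr3a*, whose product anchors a phosphatidylinositol kinase complex at the plasma membrane, lies 797 kb before *Tg* and varied least of the 21 genes. It measured 74.0, 78.1, 78.6, 78.2 and 79.4 CPM in affected and 76.1 to 83.1 CPM, median 81.5 CPM, in unaffected mice. All affected mice lay below the median of the unaffected mice, but the difference was small, with a log2 fold change of -0.05 (SE 0.04, adjusted p = 0.524).

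After *Tg*, the nearest gene was *Ccn4* (chr15:66891320-66923201, 40.6 kb away), which encodes a matricellular protein induced by Wnt signalling. *Ccn4* reached 57.4, 127, 220, 131 and 94.3 CPM in affected mice and 77.4 to 373 CPM, median 155 CPM, in unaffected mice. Both groups spread widely and overlapped, and the log2 fold change was -0.51 (SE 0.40, adjusted p = 0.434). Its relative *Ccn5* was higher in affected mice (log2 fold change 1.04, SE 0.20, adjusted p = 0.00529).

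*Ndrg1*, a gene known to respond to hypoxia and cellular stress, lies 78.6 kb after *Tg*. Its values were 104, 69.4, 102, 66.8 and 67.8 CPM in affected mice and 86.2 to 117 CPM, median 99.4 CPM, in unaffected mice. Affected mice 3, 5 and 6 lay below all unaffected mice and mice 1 and 4 lay among them (log2 fold change -0.27, SE 0.13, adjusted p = 0.194). Of its exon bases 8.43% are shared with genes on the opposite strand.

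*St3gal1* rose in affected mice. It lies 252 kb after *Tg* (chr15:67102875-67176830) and encodes a sialyltransferase that caps galactose on O-linked glycans. Its values were 74.2, 103, 81.5, 101 and 55.3 CPM in the affected mice and 49.2 to 64.1 CPM, median 57.2 CPM, in the unaffected mice. Affected mouse 6 lay within the unaffected range and the other 4 lay above it. The log2 fold change was 0.54 (SE 0.14, 1.45-fold), with an adjusted p of 0.0217. The adjusted p became 0.0607 without affected mouse 3 and 0.0644 without affected mouse 5. Of its relatives *St3gal2* to *St3gal6*, all 5 were tested, with adjusted p-values (edgeR) from 0.545 to 0.807 and a median log2 fold change of 0.20.

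*Zfat*, a zinc finger gene 1.23 Mb after *Tg*, had 5.68, 7.71, 5.62, 8.24 and 6.61 CPM in affected and 4.88 to 8.91 CPM, median 6.45 CPM, in unaffected mice. The affected mice lay inside the range of the unaffected mice, and the log2 fold change was 0.00 (SE 0.15, adjusted p = 0.995).

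A run of 3 short non-coding genes lies on the minus strand between 1.47 and 1.49 Mb after *Tg*, and the fold change of each was negative. The genes of the microRNAs *Mir30b* and *Mir30d* lie at the ends of *Gm26621* and *Gm37296*, and their rows hold 0 counts in all 12 mice. The libraries were made from total RNA and not for small RNA, so these 0 counts do not show whether the microRNAs are present. *Gm26621* shares 16 exon bases with *Mir30b* and *Gm37296* shares 9 with *Mir30d*. *Gm37296*, like *Gm37320*, has the biotype TEC, a class for loci whose annotation awaits experimental evidence.

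*Gm37296* fell in affected mice. It spans chr15:68338295-68341216 and gave 15.6, 16.1, 13.4, 14.8 and 12.3 CPM in the affected mice and 16.6 to 19.8 CPM, median 17.8 CPM, in the unaffected mice. Every affected mouse lay below every unaffected mouse. The log2 fold change was -0.33 (SE 0.08, 1.26-fold lower), with an adjusted p of 0.0204. It shares 234 of its exon bases with *Gm20732* on the same strand, which reached at most 3.41 counts in any mouse. The deposited data mark *Gm37296* as confounded, a mark not explained in the sources used here.

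For *Gm37320* (chr15:68321381-68326333), the affected mice had 11.6, 12.6, 10.4, 11.4 and 9.47 CPM and the unaffected mice 9.82 to 18.8 CPM, median 14.4 CPM. The lowest unaffected mouse was mouse 21, and all affected mice lay below the unaffected median (log2 fold change -0.42, SE 0.14, unadjusted p = 0.00927, adjusted p = 0.0609). Without unaffected mouse 21 the adjusted p was 0.0100. *Gm26621* ranged from 11.5 to 15 CPM in affected and from 14.2 to 19.4 CPM in unaffected mice (log2 fold change -0.27, SE 0.10, adjusted p = 0.0882).

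**Figure D3:**
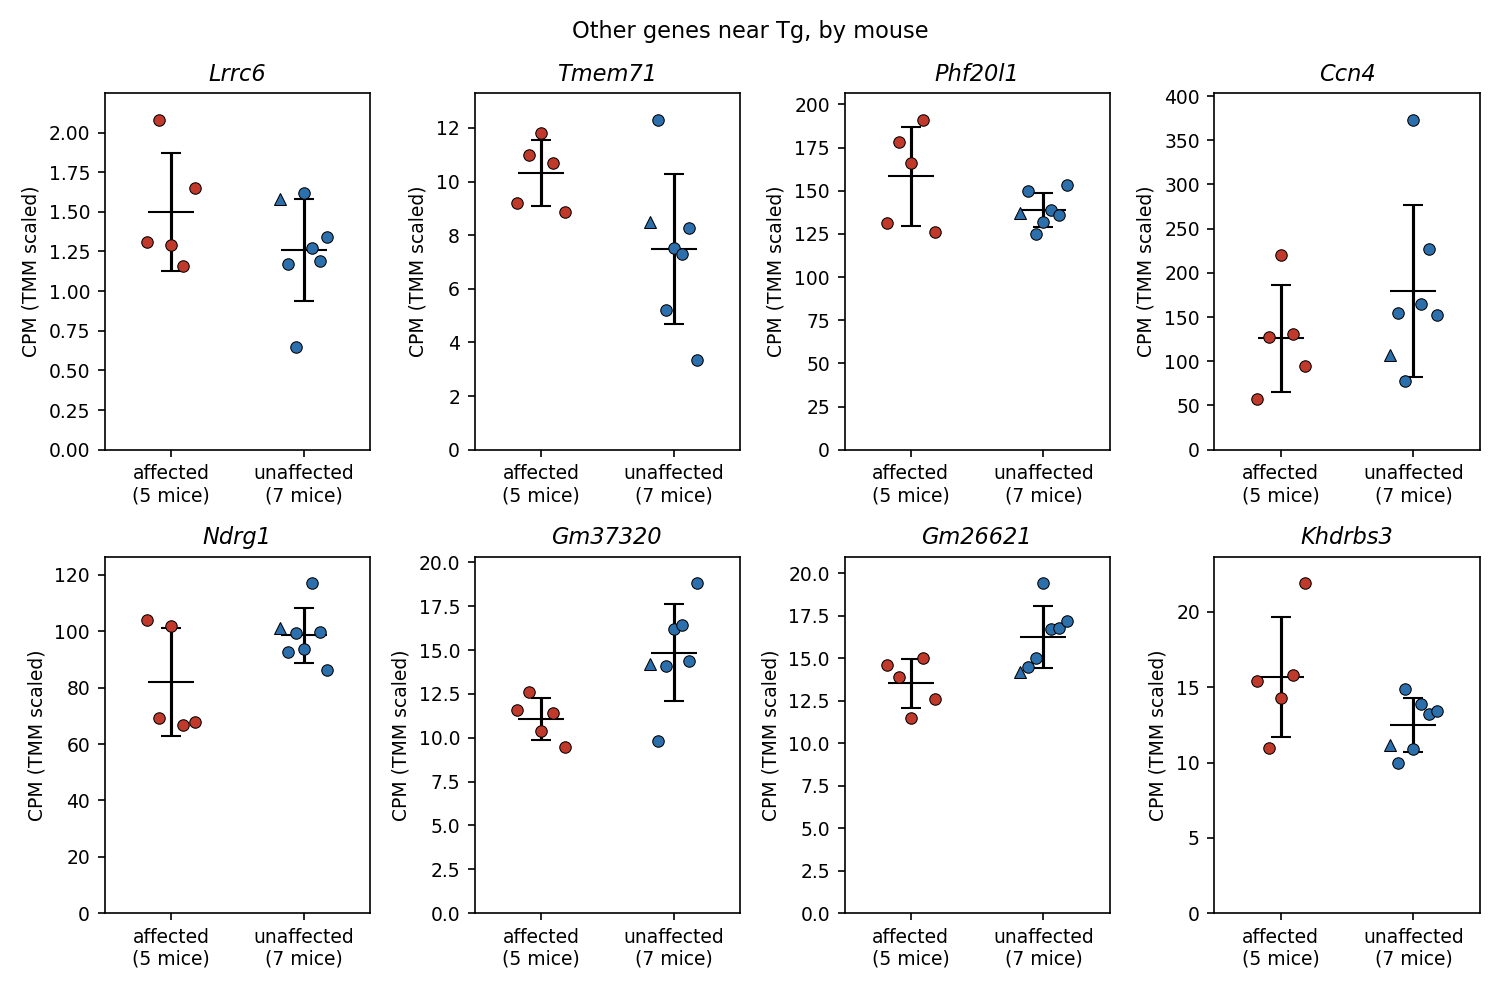
TMM-scaled CPM of 8 genes near *Tg* whose adjusted p was 0.05 or more, in the 5 affected and 7 unaffected mice. Each point is a mouse, the triangle is the TCK mouse, and bars are the mean ± SD. In every panel the groups overlap, with *Gm37320* and *Gm26621* lower in most affected mice (affected means 11.1 and 13.5 CPM, unaffected means 14.8 and 16.3 CPM).

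*Pvt1* had the largest fold change of the 21 genes. It lies 4.29 Mb before *Tg* (chr15:62037986-62378096) and was measured at 2.58, 2.86, 1.60, 3.32 and 4.40 CPM in the affected mice and at 0.845 to 2.0 CPM, median 1.33 CPM, in the unaffected mice. Affected mouse 4 lay within the unaffected range and the other 4 lay above it. The log2 fold change was 1.06 (SE 0.27, 2.08-fold), with an adjusted p of 0.0230. These levels rest on few counts, from 16.00 to 80.00 a mouse, and the adjusted p was 0.0583 without affected mouse 5 and 0.0529 without affected mouse 6. Of the exon bases of *Pvt1* 6.43% are shared with other genes, and the deposited data mark it as confounded.

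*Myc*, 4.68 Mb before *Tg* (chr15:61985391-61990374) and adjacent to *Pvt1*, was higher in affected mice as well. It reached 14.3, 27.9, 18.3, 19.2 and 15.1 CPM in the affected mice and 11.9 to 15.5 CPM, median 13.3 CPM, in the unaffected mice. Affected mouse 3 stood well above the rest, and mice 1 and 6 lay within the unaffected range. The log2 fold change was 0.49 (SE 0.15, 1.40-fold) and the adjusted p 0.0436. Leaving out affected mouse 3 gave 0.31 with an adjusted p of 0.0811, and in 8 of the 12 fits that left out 1 mouse the adjusted p was 0.05 or more.

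Of the 11 relatives and partners of *Myc* examined, 10 were tested and 1, its paralog *Mycn*, passed, being lower in affected mice (log2 fold change -1.01, SE 0.21, adjusted p = 0.00743). This is 1 call among 10, beside 13.7% of all genes tested. *Mycn* averaged 1.57 ± 0.372 CPM (SD, n = 5) in affected and 3.16 ± 0.737 CPM (SD, n = 7) in unaffected mice.

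**Figure D4:**
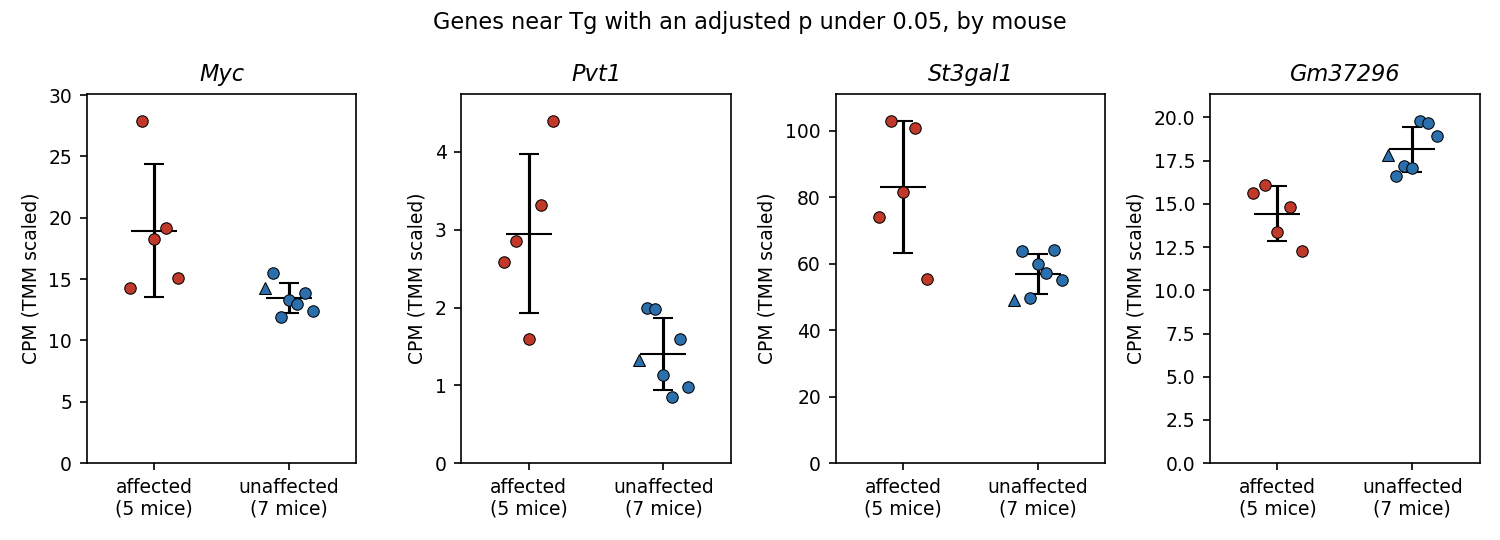
TMM-scaled CPM of the 4 genes near *Tg* with an adjusted p under 0.05, in the 5 affected and 7 unaffected mice. Each point is a mouse, the triangle is the TCK mouse, and bars are the mean ± SD. Only for *Gm37296* do the groups not overlap (12.3 to 16.1 CPM against 16.6 to 19.8 CPM).

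The remaining genes did not pass the test. Before *Tg*, *Fam49b*, which encodes a Rac1-binding regulator of the actin cytoskeleton, ranged from 34.0 to 48.3 CPM in affected and from 27.7 to 52.5 CPM in unaffected mice (log2 fold change 0.04). *Asap1*, a GTPase-activating protein gene for Arf proteins, ranged from 65.5 to 108 CPM and from 68.1 to 82.8 CPM (0.16). *Gm10926*, a TEC locus within the span of *Asap1*, had 0.440 to 1.55 CPM and 0.740 to 1.03 CPM (0.14). After *Tg*, *Khdrbs3*, which encodes an RNA-binding regulator of splicing, ranged from 11 to 21.9 CPM in affected and from 9.96 to 14.9 CPM in unaffected mice (0.33, adjusted p = 0.183). *Fam135b*, 4.58 Mb after *Tg*, ranged from 1.05 to 3.97 CPM and from 2.16 to 4.20 CPM (-0.56, adjusted p = 0.223).

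Per length, the order of the levels over all 12 mice began with *Sla* at 465 FPKM and *Gm17140* at 78.0 FPKM. *Phf20l1*, *Ccn4* and *Ndrg1* followed at 34.9, 33.8 and 32.2 FPKM, levels that lay within each other's spread. *Efr3a* stood at 20.9, *Asap1* at 19, *St3gal1* at 13.4 and *Fam49b* at 13.2 FPKM. *Khdrbs3* (7.28 FPKM) and *Myc* (7.27 FPKM) were close together, and *Kcnq3* was lowest at 0.160 FPKM.

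The other 84 of the 105 genes did not reach the count minimum, and 45 of them had no count in any mouse. They include 10 of the 25 protein-coding genes near *Tg*. *Adcy8*, an adenylate cyclase gene, reached 10 counts in 1 mouse with at most 30.0 counts, and the gasdermin genes *Gsdmc*, *Gsdmc2*, *Gsdmc3* and *Gsdmc4* did not exceed 5.0 counts in any mouse. *Oc90* and *Hhla1*, both less than 1 Mb before *Tg*, had at most 3.0 and 2.0 counts. Just outside the minimum lay *Col22a1*, a collagen gene with 10 counts in 4 mice and at most 93.31 counts, and just inside it lay *Kcnq3*, with 10 counts in 5 mice.

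The TCK mouse is the only unaffected mouse from the vendor of the affected mice. Its *Gm37296* level of 17.8 CPM lay within the CRW range of 16.6 to 19.8 CPM, and its *Pvt1* level of 1.33 CPM lay within the CRW range of 0.845 to 2.0 CPM, outside the affected range in both cases. *St3gal1* stood at 49.2 CPM in this mouse, below the CRW range of 49.8 to 64.1 CPM. At 14.3 CPM, its *Myc* level lay within the CRW range of 11.9 to 15.5 CPM and equalled that of affected mouse 1 when rounded. These are the values of 1 animal.

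The relatives and partners of the protein-coding genes near *Tg* lie elsewhere in the genome. Of 58 such genes, 53 were tested, 3 were higher and 3 were lower, with a median log2 fold change of 0.14. The share called was 11.3%, beside 13.7% of all genes tested. The higher genes were *Ccn5* and the partners of *Fam49b* in actin regulation, *Rac1* (0.29, adjusted p = 0.00884) and *Nckap1* (0.40, adjusted p = 0.00328). Besides *Mycn*, the lower genes were *Asap3* (-0.60, adjusted p = 0.00502) and the potassium channel gene *Kcnq1* (-0.52, adjusted p = 0.0419).

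Some markers of other cells differed between the groups. Of 6 macrophage markers, 3 were higher in affected mice (*Cd68*, *Mrc1* and *Csf1r*), with a summed level of 133 to 213 CPM in affected and 64.8 to 157 CPM in unaffected mice. Of 4 fibroblast markers, 2 were higher (*Dcn* and *Pdgfra*), with summed levels of 622 to 1002 CPM and 423 to 642 CPM. Among thyroid follicle markers, *Slc26a4* was higher at a low level (mean 1.64 CPM in affected and 0.117 CPM in unaffected mice). *Pax8* was lower (266 and 467 CPM), and the other markers of that list did not pass the test. *Ret* of the C cell list was lower. In the endothelial list *Kdr* was lower (-0.60), while its other 3 markers had fold changes of 0.17 to 0.31 that did not pass the test. The 5 lists named here are those with a call among the 14 marker lists. The part of these cells in the levels of *Myc*, *Pvt1*, *St3gal1* and *Gm37296* was not tested.

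The count per FPKM and per library total gives the transcript length that the authors' software implied in each mouse. It could be computed for 12 of the 21 genes, those with at least 100 counts in every mouse and more than 1 annotated transcript. In 0 of the 12 did the groups not overlap, beside 152 of 9084 genes meeting the same minimum (1.67%). The largest differences were those of *Efr3a* (4.57%, affected relative to unaffected) and *Fam49b* (-4.04%). For *Tg* itself the difference was -7.39%, at 7790 ± 80.8 bases (SD, n = 5) against 8412 bases in unaffected mice, without overlap.

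Across 22 other settings of the normalization, filter, test and mice included, *Pvt1* had an adjusted p under 0.05 in 19, *Gm37296* in 18, *St3gal1* in 16 and *Myc* in 6. None of the 4 changed sign. Scaling by library totals without *Tg* shifted the median log2 fold change of all genes to -0.13 and the calls to 604 higher and 1709 lower, against 1500 higher and 1199 lower. Under that scaling *Gm37320* (-0.55), *Gm26621* (-0.40), *Gm37296* (-0.46) and *Pvt1* (0.91) had an adjusted p under 0.05, while *Myc* (0.37) and *St3gal1* (0.43) did not.

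**Figure D5:**
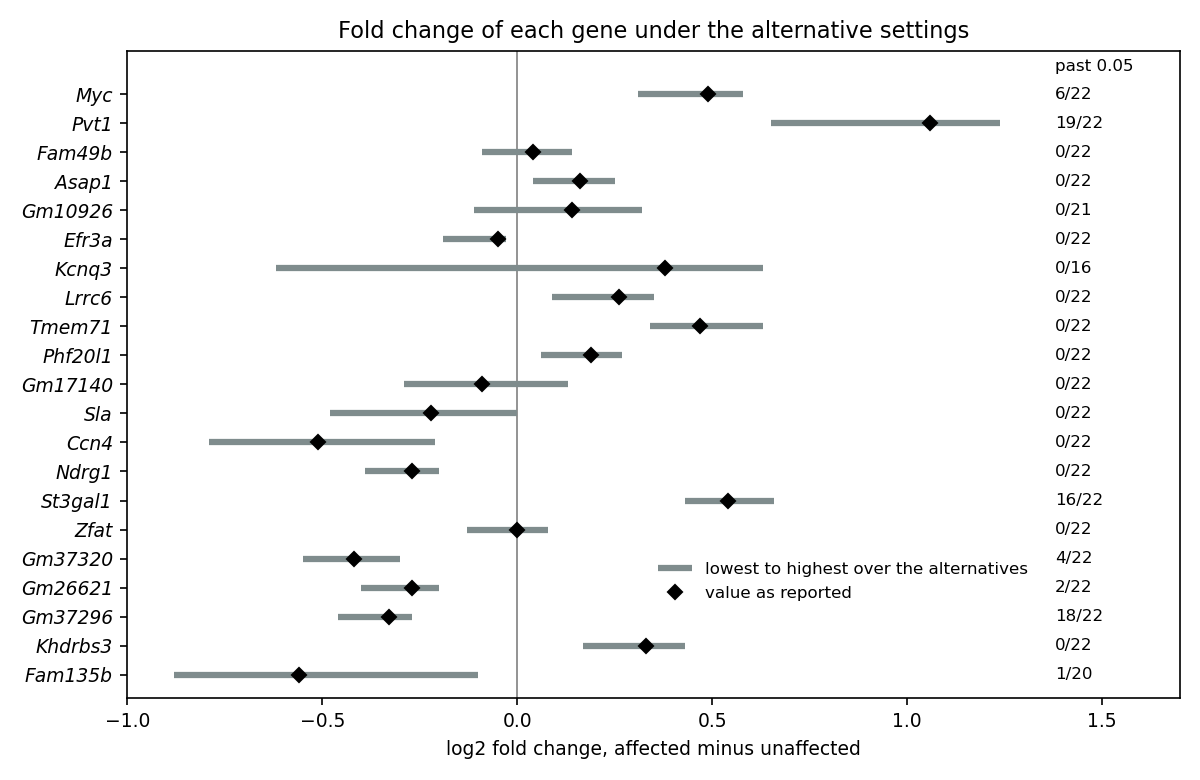
Log2 fold change (affected minus unaffected, horizontal axis) of each of the 21 genes, ordered from before to after *Tg*. Diamonds are the reported values, grey bars run from the lowest to the highest value over the alternative settings, and the figures at the right count the settings with an adjusted p under 0.05. *Pvt1* runs from 0.65 to 1.24 and *Kcnq3* from -0.62 to 0.63.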

How the data were processed

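Thyroid RNA (5 affected and 7 unaffected mice) was sequenced by the authors on an Illumina NextSeq from KAPA RNA HyperPrep libraries with ribosomal RNA removal. They aligned reads with the OmicSoft Aligner OSA4 to the reference they name Mouse.B39 (Ensembl.R96) and quantified genes in Array Studio. They deposited estimated counts per gene, not normalized, and FPKM values in a second table. Whether the counting used strand is not given in the sources used here. The deposited data mark 12 of the 21 genes as confounded, and what the mark means is not given in the sources used here. Some marked genes, such as *Sla*, *Asap1* and *Efr3a*, share no annotated exon base with another gene. Of the called genes, *Pvt1* and *Gm37296* are marked, whereas *Myc* and *St3gal1* are not. *Sla* and *Gm17140* are marked as well.

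Estimated counts were rounded, filtered with edgeR's filterByExpr (minimum count 10, 19661 genes left), scaled by TMM and tested with edgeR's robust quasi-likelihood test (edgeR 4.0.16, R 4.3.3), affected against unaffected, with no covariate. The study names no expression test. Benjamini-Hochberg adjustment covered all genes tested. Log2 CPM for overlap between groups used a prior count of 2. The script was tested on simulated counts of 5 affected and 7 unaffected mice with known changes. It recovered 57% of 2-fold and 85% of 4-fold changes. A far smaller share of genes was changed in the simulation than the 13.7% called here, so the recovery in the real data can differ. A gene that did not pass the test may therefore still differ, above all by less than 2-fold.

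Alternatives were DESeq2 1.42.0, other scalings and filters, limma 3.58.1 on log2(FPKM + 1) and log2(FPKM + 0.1) with a mean FPKM minimum of 0.5 (the former also without it), *Xist* as a covariate, and each mouse left out. Using only the CRW mice as controls is the same fit as leaving out the TCK mouse and was counted once. All 55536 identifiers are in GENCODE M21 (GRCm38), and all 105 positions near *Tg* match it, so coordinates are given as GRCm38. Per-mouse values are given for the genes over *Tg*, the 5 nearest on each side and those called or without overlap. Other members are given by range. Relatives and cell markers are named where called. The members and lists were chosen with earlier results of these data known. RefSeq's promoter table (GRCm38.p6) matched 0 of the 21 genes, so promoter motifs were not described. Nothing in the labels says the mice are from separate litters, so p-values measure the spread between these animals. Counts limit precision for genes with few reads, such as *Kcnq3* and *Pvt1*.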

Additional observations from a re-analysis of the deposited data

Results flagged for a closer look

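In 2 of 44 groups of values examined (the 21 genes and *Tg*, in affected and in unaffected mice), 1 mouse lay far from the others of its group by Dixon's gap test. Chance flags about 1 in 20 groups. *Efr3a* was lowest in affected mouse 1, at 74.0 CPM, where the nearest affected mouse had 78.1 CPM. *Lrrc6* was lowest in unaffected mouse 22, at 0.646 CPM, where the nearest unaffected mouse had 1.17 CPM.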

How the results depend on the processing

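The reported count was 4 of the 21 genes, 3 higher and 1 lower, with 1 gene without overlap. Library totals without TMM gave 2 calls, both higher, with 0 lower and 0 without overlap, and library totals without *Tg* gave 1 higher and 3 lower, with 2 without overlap. Upper-quartile factors gave 3 lower and DESeq2 2 lower. Among all genes tested, these settings called 10.8%, 11.8%, 13.5% and 18.3%, in the order given, beside 13.7% as reported. Over all genes, 1206 of 19661 were without overlap with library totals without TMM. The number was 1312 of 19651 with library totals without *Tg*, beside 1404 of 19661 as reported. On FPKM, limma gave 1 call, higher, and 0 lower with a pseudocount of 1 or 0.1, beside 10.1% and 10.2% of all genes. Without a filter it gave 0 in either direction, where 1339 of all genes were called (3.62%). Leaving out each mouse gave 1 to 5 calls, 0 to 3 higher, 1 to 2 lower and 1 to 3 without overlap. The 3 without overlap came without unaffected mouse 21, where 1616 of all 19471 genes tested were without overlap. Without affected mouse 4 or 6 there were 2, beside 2243 of 19958 and 1985 of 19998 genes. The lowest count came without affected mouse 5 (1 call, *Gm37296*), 2 calls remained without affected mouse 3, and the highest count came without affected mouse 4 or unaffected mouse 21. Over all genes, 8.89% were called without affected mouse 5, 9.43% without affected mouse 3 and 17.0% without affected mouse 4. Without unaffected mouse 21 the share over all genes was 11.5%. Restricted to genes within 1 Mb there was 1 call, higher, with 0 lower and 0 without overlap. Within 2.5 Mb there were 2 calls among 17 genes (11.8%), 1 of them higher. Among the 9 genes not marked as confounded there were 2 calls (22.2%), 0 lower. The share beside these subsets is the 13.7% of all genes tested.

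The fold change changed sign in 5 genes, none with an adjusted p under 0.05 in any setting. *Fam49b* was -0.09 with library totals without *Tg* and -0.0057 with upper-quartile factors, and ran from -0.05 to 0.14 with mice left out. *Zfat* was -0.0067 and -0.13 with library totals with and without *Tg*, -0.05 with upper-quartile factors, and -0.02 and -0.03 with limma at pseudocounts of 1 and 0.1, and ran from -0.08 to 0.08 with mice left out. With mice left out, *Gm10926* ran from -0.11 to 0.32, *Kcnq3* from -0.62 to 0.63 and *Gm17140* from -0.29 to 0.13. *Sla* reached a value too close to 0 to carry a sign when affected mouse 1 was left out. The cause of these changes was not tested. No paired analysis was made because the groups are different animals and the labels name no pairs or litters.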
